A study of Mus musculus with 12 samples.

Results

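The livers taken at ZT10, late in the light phase of the day, were compared with the livers taken at the 5 other times. The series holds poly(A) RNA-Seq data from 12 livers of wild-type C57BL/6 mice, which were adults of 3 to 6 months, male, untreated and kept in 12 hr of light and 12 hr of darkness. ZT2, ZT6, ZT10, ZT14, ZT18 and ZT22, with ZT0 as lights on, were each sampled in series 1 and in series 2, so that 2 livers stood at ZT10 and 10 at the other times. A gene was counted as above the other times when both ZT10 values were higher than all 10 others, and as below them when both were lower. Of 20069 genes, 10198 exceeded 8 reads per base pair (rpbp, the mean coverage of the exons) in at least 1 liver, and of these 273 lay above (2.68%) and 426 below (4.18%). Among the 10198 genes, 57 exceeded the minimum at ZT10 alone, 10 of them among the 273, and such genes had to be higher there to be included.

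In the liver clock, the activators CLOCK and BMAL1 bind E-box elements and drive the *Per* and *Cry* repressors, the REV-ERB receptors and the PAR bZIP factors, which pass the rhythm on to metabolic genes. Mice rest and eat little in the light, and the end of the light phase is known for high glucocorticoid levels and for the hours just before feeding begins. Heme and lipid synthesis, drug oxidation and the response to fasting all have daily rhythms in this organ. Since each sample is a whole liver, fewer cells of a type and less mRNA per cell cannot be told apart in any of the values.

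Hepatocyte transcripts made up the samples at ZT10 as at other times. Of 16 hepatocyte markers, *Fgb* was called lower, and 5 were lower and 2 higher at an unadjusted p below 0.05. *Alb*, which encodes serum albumin, was at 111792 and 97579 rpbp in the ZT10 livers and between 50445 and 122523 rpbp in the others. Together, these markers summed to 219049 and 199761 rpbp at ZT10 and to between 170871 and 239790 rpbp elsewhere. None of the 11 Kupffer and myeloid, 12 endothelial and 7 stellate cell markers tested was called by limma, with or without its trend, and none had an unadjusted p below 0.05. Their sums at ZT10 lay within the range of the 10 other livers. The 1 lymphocyte marker tested, *Cd52*, was at 20.8 and 18.8 rpbp against 7.92 to 21.1 rpbp and was not called by limma (unadjusted p = 0.023, adjusted p = 0.14), and the 3 erythroid markers and 1 pancreatic marker tested were not called either and had no unadjusted p below 0.05. Of 2 cholangiocyte markers tested, *Sox9* was lower, at 2.56 and 1.52 rpbp against 1.84 to 11.3 rpbp (adjusted p = 0.028), a call that ended without either ZT10 liver (adjusted p up to 0.22), without the ZT2 liver of series 1 (0.058) and without both ZT2 livers (0.11). The erythroid markers stood apart in 1 liver, with a sum of 1174 rpbp at ZT10 in series 2 against 414 rpbp in series 1 and at most 808 rpbp elsewhere, and the part of this in the results was not tested. The 2 ZT10 livers had a Pearson's r of 0.976 across genes (log2 scale), within the range of 0.975 to 0.987 for the 6 pairs of the same time. However, 285 genes differed by more than 2-fold between them, the most of the 6 pairs (from 113 at ZT2). The liver most like that of series 1 at ZT10 was the other ZT10 liver, at r = 0.976, followed by the series 1 liver of ZT14 at 0.975. For series 2 it was the series 2 liver of ZT6, at r = 0.981. These correlations are across genes that share libraries and are given as a description.

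**Figure D1:**
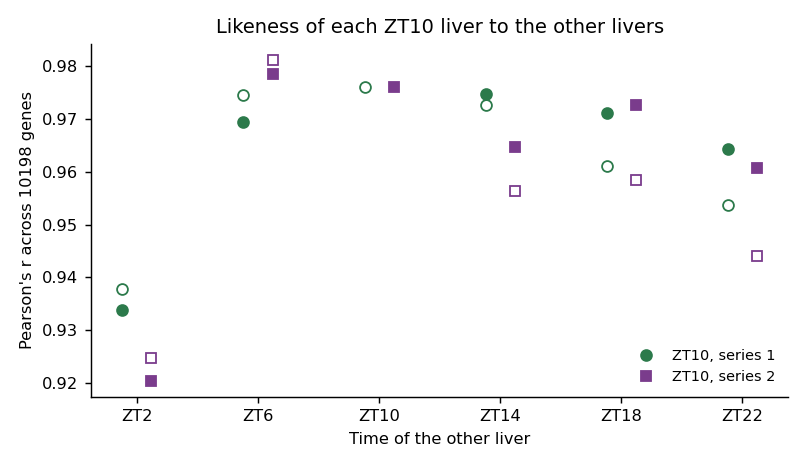
Pearson's r of log2(rpbp + 1) across 10198 genes (y axis) between each ZT10 liver (circles, series 1; squares, series 2) and every other liver, by the time of that liver (x axis). Filled symbols mark partners of series 1 and open symbols partners of series 2; r was lowest with the ZT2 livers, from 0.920 to 0.938, and highest between the ZT10 and ZT6 livers of series 2, at 0.981.

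The first comparison asked which mRNAs stood higher or lower at ZT10 than over the rest of the day. In limma, with an adjusted p below 0.05 (Benjamini-Hochberg over 10198 genes), 285 genes were higher at ZT10 than at the mean of the 5 other times (2.79%) and 309 were lower (3.03%). These shares are the background for every count of list members given here, and the median log2 difference of all genes was −0.01. The size of the count rested on particular livers. Without the ZT10 liver of series 2, 69 genes were higher and 105 lower, and without that of series 1, 139 and 125. With both ZT2 livers left out, a setting chosen after the data were seen, the counts were 65 and 107, and 63 of the 285 and 106 of the 309 genes were still called. All 285 genes, and the 308 of the 309 still tested, kept their direction without ZT2. Whichever single liver was removed, 37 of the higher and 40 of the lower genes were called throughout.

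By the non-overlap count, ZT10 was not the most distinct time. Both ZT2 livers lay above all others in 1056 genes and below them in 977, and the ZT6 livers in 579 and 356. ZT10, with 273 and 426, had fewer genes above than ZT14 (360) and more than ZT18 (129) and ZT22 (219). Its count of genes below was exceeded by that of ZT2 alone. The split of the ZT10 genes moved with the scaling, from 273 above and 426 below to 380 above and 359 below when size factors (median of ratios) replaced the deposited scaling. A gap of at least 1.1 times to the nearest other liver was met by 48 genes above and 108 below.

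**Figure D2:**
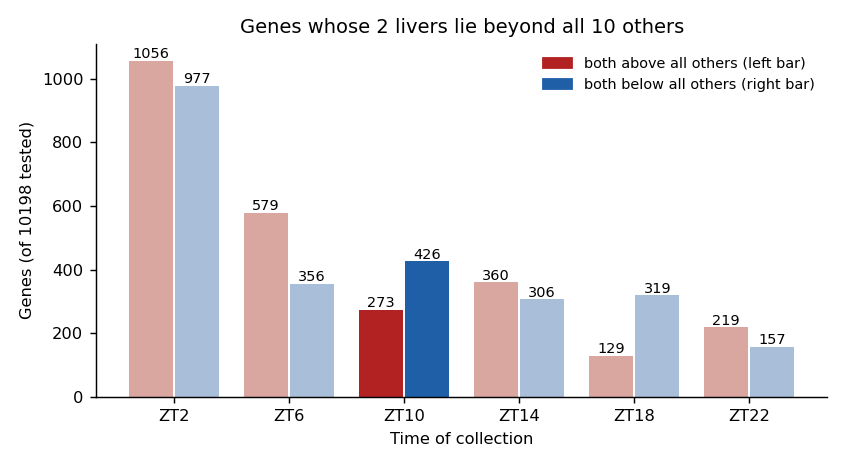
Number of genes, of 10198, whose 2 livers of a time lay above (left bar) or below (right bar) all 10 other livers, for each time of collection. ZT10, in full colour, has 273 genes above and 426 below, and ZT2 has the highest counts, 1056 and 977.

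The separation was modest for most of these genes. The 273 genes above had a median ratio of 1.31 to the mean of the 10 other livers, and 74 of them exceeded 1.5 and 29 exceeded 2. The 426 genes below had a median ratio of 0.746, and 28 were under 0.5. At the edge, *Mrpl28* was at 82.7 and 79.3 rpbp at ZT10 against a highest other value of 79.2 rpbp and was counted, while *Cycs*, which encodes cytochrome c, was at 158 and 159 rpbp against 158 rpbp and was not. Among the genes above, the next highest time was ZT6 for 129 (47.3%) and ZT14 for 95 (34.8%), and the lowest time was ZT2 for 139 (50.9%). The genes below were most often followed by ZT6 as the next lowest time (192 genes, 45.1%), and the highest time was ZT2 for 161 (37.8%) and ZT22 for 125 (29.3%).

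Each series was also read alone. ZT10 was the highest of the 6 times for 1248 genes in series 1 (12.2%) and for 1849 in series 2 (18.1%). Of the 1248 genes of series 1, 431 (34.5%) were also highest at ZT10 in series 2, and these were 23.3% of the 1849 genes of series 2. It was the lowest time for 1909 genes in series 1 (18.7%) and for 1944 in series 2 (19.1%), and 599 genes were lowest in both, 31.4% of the first set and 30.8% of the second.

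The 10 leading genes above (the largest differences among called genes with no overlap) were *Cyp2a4*, *Lpin1*, *Alas1*, *Thrsp*, *Usp2*, *Upp2*, *BC019819*, *D0H4S114*, *Plk3* and *Mnk2*. *Alas1* (chromosome 9, 106135786 to 106150457, mm9), the rate-limiting enzyme of heme synthesis, was at 867 and 815 rpbp at ZT10 and between 41.1 and 469 rpbp (median 164) elsewhere. It overlaps *4930500F10Rik* on the opposite strand. The log2 difference of *Alas1* was 2.52 ± 0.57 (SE; limma adjusted p = 0.035). The highest other value was that of series 2 at ZT6, while the series 1 liver of that time was at 126 rpbp. *Thrsp* (chromosome 7, 104561448 to 104566240), a promoter of lipogenesis in liver, was at 4137 and 6240 rpbp against 162 to 2735 rpbp (median 1656), a log2 difference of 2.37 ± 0.29 (adjusted p = 0.0027). *Lpin1* (chromosome 12, 16542475 to 16596576), a phosphatidate phosphatase of triglyceride synthesis, reached 95.8 and 161 rpbp against 7.72 to 49.2 rpbp (median 20.4; log2 difference 2.59 ± 0.27, adjusted p = 0.0013). Both lipid genes were also far apart between the 2 ZT10 livers, with series 2 the higher.

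*Usp2* (chromosome 9, 43875104 to 43903708), a deubiquitinase and clock output gene, was at 29.2 and 31.0 rpbp at ZT10, near 17.5 ± 0.198 rpbp (SD, n = 2) at ZT14 and at 0.920 ± 0.226 rpbp at ZT2. Its log2 difference was 2.34 ± 0.20 (adjusted p = 0.00066). *Upp2*, a uridine phosphorylase, was at 693 and 337 rpbp against 38.4 to 324 rpbp, so that the series 2 liver stood only just above the ZT6 livers. *BC019819*, a long non-coding RNA, was at 1019 and 911 rpbp against 122 to 624 rpbp (log2 difference 1.88 ± 0.17, adjusted p = 0.00094), and its ZT14 level of 579 ± 63.2 rpbp was the next highest. *Cyp2a4*, a steroid hydroxylase, had the largest difference of the 10 at 3.28 ± 0.58 (adjusted p = 0.014), from low values of 50.8 and 33.8 rpbp against 0 to 22.8 rpbp. Its near-identical neighbour *Cyp2a5* may share reads with it, so that its value is uncertain. *Plk3*, a stress-responsive kinase, was at 33.6 and 85.9 rpbp, and only the series 2 liver was clearly above the highest other value of 32.8 rpbp. *Mnk2*, the file's entry for a kinase of the translation factor eIF4E, was at 58.6 and 78.6 rpbp against at most 43.0 rpbp. *D0H4S114* (older name of *Nrep*) was at 132 and 73.7 rpbp against 10.1 to 56.9 rpbp.

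Calls of 6 of these 10 genes held whichever liver was left out. Those of *Cyp2a4*, *Alas1*, *D0H4S114* and *Plk3* ended without the ZT10 liver of series 2, and all of these but *Plk3* also without that of series 1 (highest adjusted p from 0.096 to 0.20 over the 4 genes). *Alas1* also lost its call without a single ZT2 or ZT14 liver and *D0H4S114* without a single ZT2 liver, with adjusted p of at most 0.064. Without both ZT2 livers, these 4 had an adjusted p from 0.054 to 0.081.

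**Figure D3:**
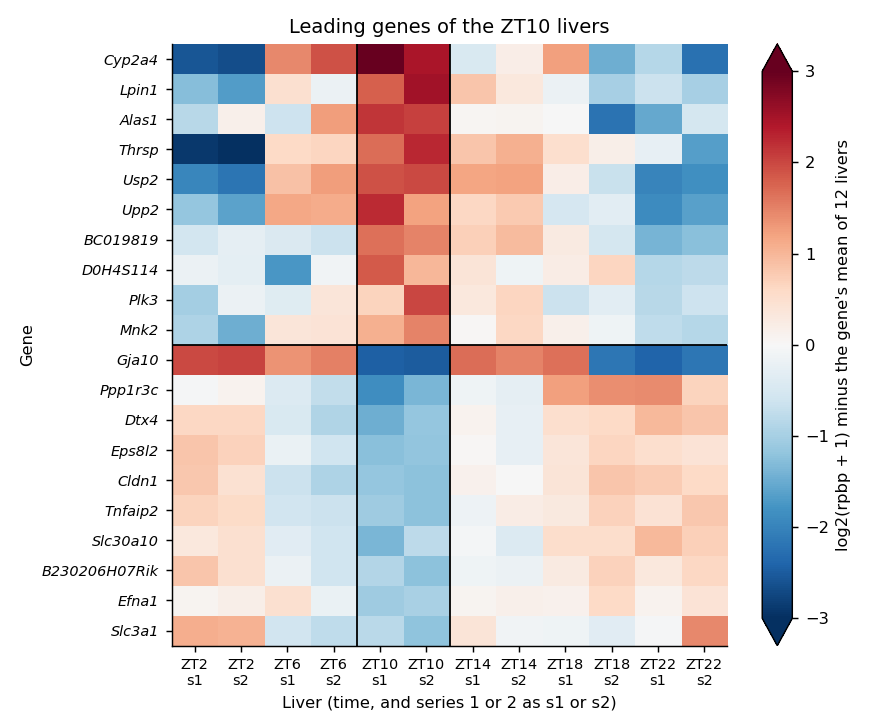
Heat map of the 10 leading genes above (top rows) and the 10 leading genes below (bottom rows) in the 12 livers (columns, by time and series). Colour gives log2(rpbp + 1) minus the mean of the gene over the 12 livers and is capped at 3 in either direction; both ZT10 columns, between the vertical lines, are the highest of the 12 in the top rows and the lowest in the bottom rows, and *Gja10* is also low in 3 livers of ZT18 and ZT22.

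The 10 leading genes below were *Gja10*, *Ppp1r3c*, *Dtx4*, *Eps8l2*, *Cldn1*, *Tnfaip2*, *Slc30a10*, *B230206H07Rik*, *Efna1* and *Slc3a1*. *Ppp1r3c* (chromosome 19, 36806227 to 36811143), which targets protein phosphatase 1 to glycogen, was at 47.6 and 67.6 rpbp at ZT10 and between 106 and 473 rpbp (median 181) elsewhere. It had a log2 difference of −1.94 ± 0.19 (adjusted p = 0.0010) and stood highest at ZT18, at 442 ± 36.2 rpbp (SD, n = 2). *Cldn1* (chromosome 16, 26356728 to 26371927), a tight junction protein, was at 36.6 and 34.8 rpbp against 42.8 to 149 rpbp (median 111), a log2 difference of −1.43 ± 0.14 (adjusted p = 0.0010). The ZT6 livers, at 47.6 ± 6.84 rpbp, were the closest to it. *Dtx4*, a ubiquitin ligase of the Notch pathway, was at 4.16 and 5.32 rpbp against 6.56 to 27.1 rpbp, and *Tnfaip2*, a TNF-inducible gene, at 10.6 and 9.28 rpbp against 14.6 to 41.2 rpbp. Both were lowest at ZT10 and next lowest at ZT6. *Efna1*, an ephrin ligand, was at 31.2 and 33.2 rpbp against 57.5 to 100 rpbp, and its next lowest liver was that of series 2 at ZT6. *Slc30a10*, a manganese exporter, was at 15.2 and 23.0 rpbp against 26.4 to 80.8 rpbp.

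*Eps8l2*, an actin regulator, was at 17.8 and 18.7 rpbp against 28.4 to 78.5 rpbp (log2 difference −1.45 ± 0.12, adjusted p = 0.00057). *B230206H07Rik* overlaps it on the opposite strand. The study's methods do not describe these libraries as strand-specific, so that these 2 genes may share reads and were not taken as independent. *Slc3a1*, a subunit of the cystine transporter, had ZT10 values of 42.6 and 32.4 rpbp against 44.3 to 207 rpbp. Calls of *Gja10* and *Slc3a1* ended without either ZT10 liver (highest adjusted p 0.19 and 0.27) and without single livers of other times, at adjusted p of up to 0.079, and without both ZT2 livers (0.14 and 0.17). The other 8 were called whichever liver, or both ZT2 livers, were left out.

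**Figure D4:**
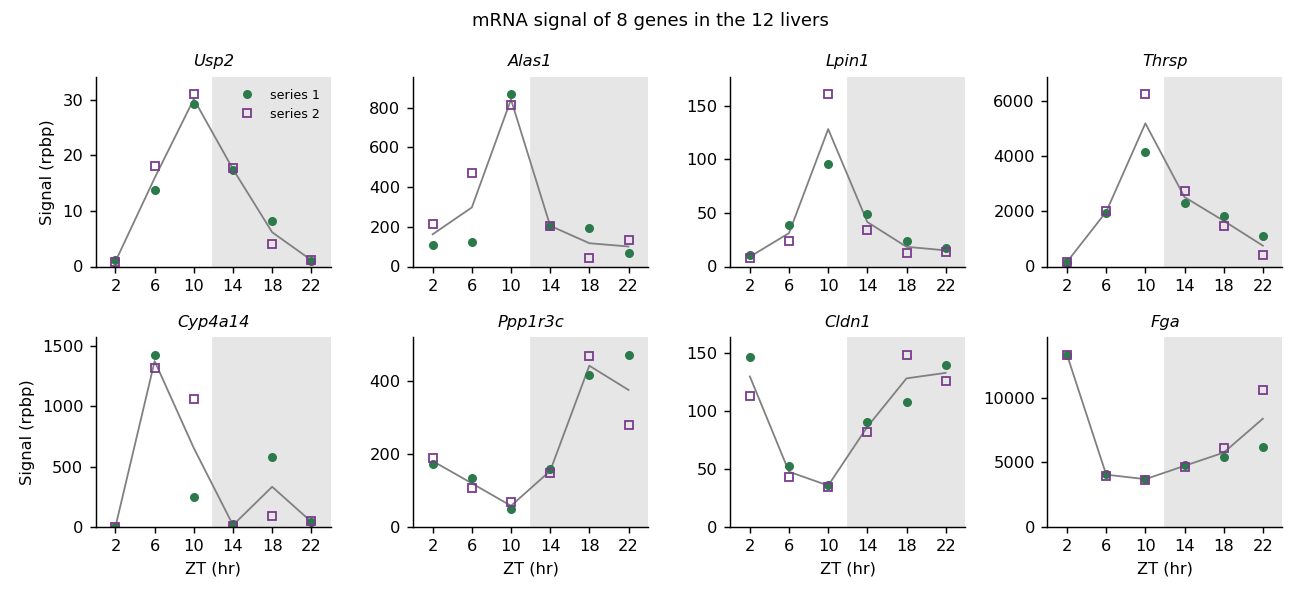
mRNA signal in rpbp (y axes, from 0) of 8 genes against the time of collection in hr (ZT, x axes). Circles are series 1, squares are series 2, the line joins the means of the 2 livers and grey marks darkness; *Usp2*, *Alas1*, *Lpin1* and *Thrsp* are highest at ZT10, *Ppp1r3c*, *Cldn1* and *Fga* are lowest, and *Cyp4a14* is highest at ZT6.

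Clock repressors and PAR bZIP factors stood high at ZT10. Of 13 genes tested, 7 were higher and 1 was lower, and the median log2 difference was 1.05 (0.67 without both ZT2 livers). *Per1* (chromosome 11, 68908719 to 68923462), a repressor of CLOCK and BMAL1, was at 11.9 and 13.8 rpbp at ZT10, above all others (0.680 to 10.4 rpbp). Its log2 difference was 1.73 ± 0.24 (adjusted p = 0.0049). *Gm129*, the file's name for the CLOCK and BMAL1 repressor *Ciart*, was at 17.6 and 14.7 rpbp, just above the ZT6 livers at 13.5 and 14.4 rpbp (log2 difference 2.26 ± 0.30, adjusted p = 0.0045). *Per2* at 27.4 and 25.4 rpbp, *Per3* at 21.8 and 16.5 rpbp and *Nr1d2*, which encodes REV-ERBβ, at 78.8 and 83.1 rpbp were called too, but each was exceeded at another time, *Per3* at 23.5 rpbp and *Nr1d2* at 103 rpbp. The PAR bZIP factor *Dbp*, which overlaps *Sphk2* on the opposite strand, was at 100 and 87.8 rpbp. It was well under the ZT6 livers at 193 and 241 rpbp and far above the median of the other livers of 5.48 rpbp. *Tef*, of the same family, was at 129 and 114 rpbp at ZT10 and 128 and 142 rpbp at ZT6. *Nfil3*, a repressor at the same elements as *Dbp* and *Tef*, was lower, at 25.4 and 29.4 rpbp against a median of 52.2 rpbp, although the ZT6 livers were lower still at 20.6 and 17.1 rpbp (log2 difference −0.81 ± 0.11, adjusted p = 0.0049). Of these 8 calls, all held without ZT2 and only that of *Per1* ended without 1 liver, that of ZT10 in series 2 (adjusted p = 0.064).

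Of the 5 genes of the positive arm, 2 were lower and none was higher, with a median log2 difference of −0.74. At an unadjusted p below 0.05, 3 were lower and 1 was higher. *Arntl*, which encodes BMAL1, was at 2.84 and 4.44 rpbp at ZT10, against 1.12 and 2.08 rpbp at ZT6, and far below the 22.2 to 29.4 rpbp of ZT18, ZT22 and ZT2. *Clock* was at 17.4 rpbp in both ZT10 livers against a median of 34.9 rpbp, and the ZT6 livers were as low at 17.8 and 16.2 rpbp (log2 difference −0.74 ± 0.07, adjusted p = 0.0010). *Npas2*, a paralog of *Clock*, was listed at 0 and at 0.12 rpbp against up to 10.2 rpbp and was not called (adjusted p = 0.052).

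The sequences before the start sites of *Gm129*, *Per1*, *Tef* and *Per3* are shown, the 4 of the 7 higher clock genes for which a motif known for this network was found before a start site, and those of a pair of genes that were lower are set beside them because they hold the same letters. The windows are those of RefSeq (GRCm38.p6, a later build than the mm9 of the files) and span 250 bases before to 50 bases after a start site. Each run is written 5′ to 3′ on the strand of the gene, with the E-box (CACGTG, a palindrome, so that both strands read alike) or, in *Per3*, the D-box (TTATGTAA, searched with TTACGTAA and on both strands) in capitals. *Gm129* lies at chr3:95882255-95882356 (minus strand), *Per1* at chr11:69098771-69098800 (plus), *Tef* at chr15:81802534-81802563 (plus), *Per3* at chr4:151044804-151044882 (minus), *Ppp1r3c* at chr19:36736691-36736720 (minus) and *Irs1* at chr1:82291537-82291566 (minus).
Gm129, higher at ZT10: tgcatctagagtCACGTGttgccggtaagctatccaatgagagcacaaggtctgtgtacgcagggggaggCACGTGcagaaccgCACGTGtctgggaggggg
Per1, higher at ZT10: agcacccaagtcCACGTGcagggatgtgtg
Tef, higher at ZT10: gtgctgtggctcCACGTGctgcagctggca
Per3, higher at ZT10: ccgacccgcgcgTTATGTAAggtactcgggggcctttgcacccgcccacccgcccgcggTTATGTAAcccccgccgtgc
Ppp1r3c, lower at ZT10: gagggaccggttCACGTGatctggctttga
Irs1, lower at ZT10: cagaggctccgtCACGTGttttgctcctct

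The 3 E-boxes of *Gm129* began between 116 and 44 bases before the start site, and the 2 D-boxes of *Per3* began 205 and 158 bases before it. The E-box letters occurred in 2349 of all 32851 windows of the table (7.15%) and the D-box letters in 347 (1.06%). A gene can have more than 1 window, and another window of *Tef*, not shown, also held the E-box letters. Counted by gene, the E-box letters were found in 887 of the 7156 tested genes with a window (12.4%) and the D-box letters in 75 (1.05%). The same E-box letters were found in genes of either direction at ZT10, in *Per1* and *Tef* and in *Ppp1r3c* and *Irs1*. A window was found for only 7156 of the 10198 genes (70.2%), too few to compare motif shares between gene groups, and a match is a description and not a bound site.

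Clock output genes had 9 of 19 members higher, none lower and a median log2 difference of 0.71. *Por*, which encodes the electron donor of the microsomal P450 enzymes, was at 524 and 434 rpbp at ZT10 against 104 to 471 rpbp (median 195; log2 difference 1.28 ± 0.13, adjusted p = 0.0011). *Inmt*, a methyltransferase, was at 2874 and 2696 rpbp, above all others (293 to 2548 rpbp; log2 difference 1.23 ± 0.09, adjusted p = 0.00036). *Wee1*, a kinase that holds back mitosis, was at 24.0 and 26.1 rpbp against a median of 10.4 rpbp, and the values at other times reached 25.7 rpbp. *Rgs16*, a regulator of G protein signalling, was at 37.2 and 54.4 rpbp, within a range of 0 to 132 rpbp. Calls of *Por*, *Upp2*, *Inmt*, *Usp2* and *Wee1* held whichever liver was left out and without ZT2. The 4 others ended without either ZT10 liver (highest adjusted p from 0.13 to 0.27), *Alas1* and *Klf13* also without a single liver of another time (0.062 to 0.064), and all 4 without both ZT2 livers (0.067 to 0.10).

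Genes of heme synthesis and drug oxidation were higher in 9 of 30 cases and lower in none, with a median log2 difference of 0.19 (0.12 without both ZT2 livers). Besides *Alas1*, *Por* and *Cyp2a4*, the list included xenobiotic P450 enzymes. *Cyp2b10*, the classic target of the receptor CAR, was at 53.6 and 96.1 rpbp at ZT10 against 1.84 to 56.9 rpbp (median 27.6; adjusted p = 0.024). *Cyp2b9* was at 392 and 627 rpbp against 0.480 to 530 rpbp. *Cyp2a5* was at 3070 and 1484 rpbp against 176 to 4365 rpbp, so that the groups overlapped widely. Near-identical copies in these P450 families may share reads. Of the 9 calls, 6 ended without the ZT10 liver of series 1 and 6 without that of series 2, 7 genes in all (highest adjusted p from 0.085 to 0.21), and 8 ended without both ZT2 livers (0.069 to 0.28). *Alas1*, *Cyp2a5* and *Cyb5* also lost theirs without a single liver of another time (0.055 to 0.073).

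**Figure D5:**
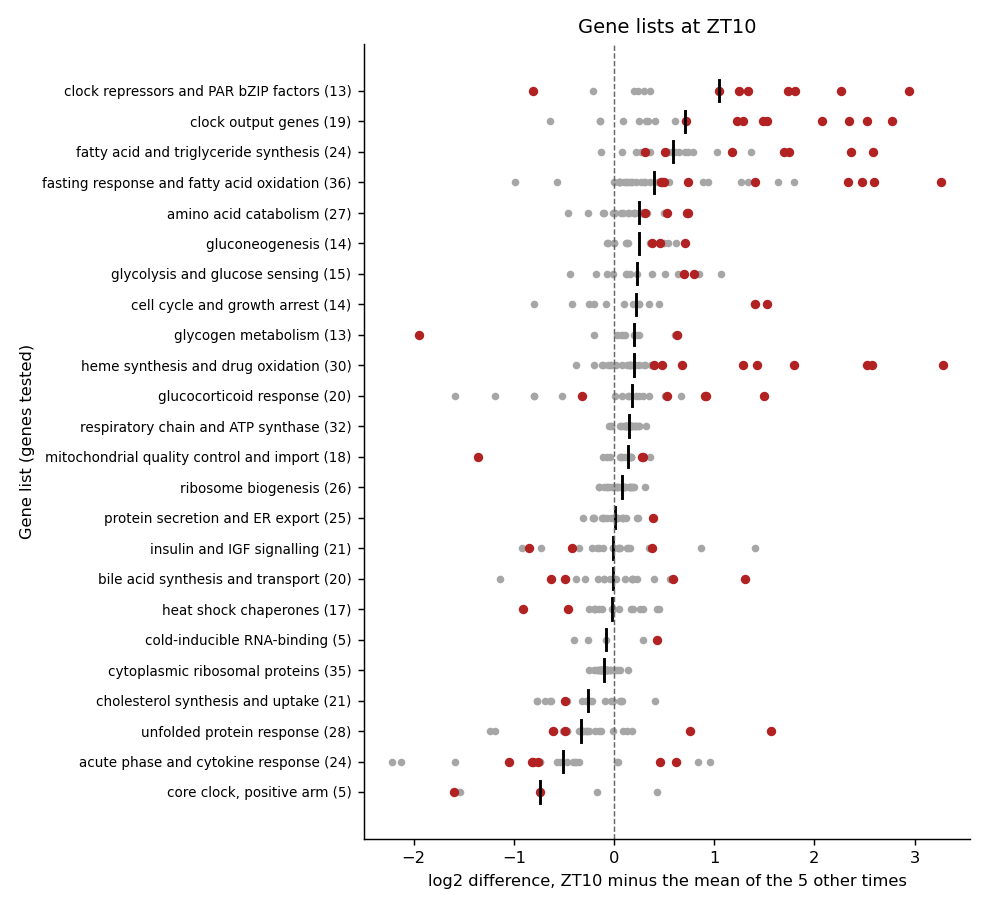
Log2 difference of ZT10 from the mean of the 5 other times (x axis) for each gene tested of 24 lists (y axis, genes tested in brackets). Red points have an adjusted p below 0.05, grey points do not, and the black bar is the median of the list; medians run from −0.74 for the positive arm of the clock to 1.05 for its repressors and the PAR bZIP factors.

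Fatty acid and triglyceride synthesis had 7 of 24 genes higher, none lower and a median log2 difference of 0.59 (0.37 without both ZT2 livers). Next to *Lpin1* and *Thrsp* stood *Elovl6*, a fatty acid elongase, at 158 and 395 rpbp at ZT10 against 21.6 to 165 rpbp (log2 difference 1.74 ± 0.42, adjusted p = 0.042). *Scd1*, the stearoyl-CoA desaturase, was at 8948 and 23462 rpbp, while the ZT6 livers were at 27154 and 18548 rpbp and the ZT14 livers at 2719 and 1506 rpbp. *Lpin2* was at 89.6 and 156 rpbp against 24.3 to 98.6 rpbp. In these genes the ZT10 liver of series 2 had the higher value, and 5 of the 7 calls ended without it (highest adjusted p from 0.053 to 0.33). The same 5 ended without both ZT2 livers (0.062 to 0.22), and 3 of them, *Scd1*, *Elovl6* and *Dgat1*, without a single liver of another time (0.053 to 0.085), while those of *Thrsp* and *Lpin1* held. *Srebf1*, the transcription factor of lipogenesis, was at 323 and 310 rpbp against 106 to 413 rpbp and was not called (adjusted p = 0.098). In cholesterol synthesis and uptake, 1 of 21 genes was lower and none higher, with a median of −0.26 (−0.39 without both ZT2 livers). That gene was *Srebf2*, which encodes the activator of cholesterol synthesis, at 19.7 and 20.6 rpbp against 22.4 to 42.4 rpbp (log2 difference −0.49 ± 0.09, adjusted p = 0.019), and its call ended without either ZT10 liver (adjusted p up to 0.11).

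The fasting response and fatty acid oxidation list had 9 of 36 genes higher, none lower and a median of 0.40. Its leading members are targets of PPARα that oxidise fatty acids or cleave acyl-CoA. *Cyp4a10* was at 610 and 759 rpbp at ZT10, below the 996 and 902 rpbp of ZT6 and above the 115 and 55.2 rpbp of ZT14 (log2 difference from the mean of the others 2.33 ± 0.28, adjusted p = 0.0026). *Cyp4a31*, which may share reads with it, was at 557 and 698 rpbp against 4.40 to 897 rpbp. *Cyp4a14* was at 249 and 1058 rpbp at ZT10 and at 1376 ± 76.2 rpbp (SD, n = 2) at ZT6. The thioesterase *Acot4* was at 97.0 and 185 rpbp against 7.72 to 154 rpbp, and *Acot3* at 63.9 and 145 rpbp against 0 to 192 rpbp, both overlapping an opposite-strand transcript. Calls of *Cyp4a10* and *Cyp4a31* held whichever single liver was left out, and the 7 others ended without the ZT10 liver of series 2 (highest adjusted p from 0.12 to 0.27). *Cyp4a14*, *Acot3*, *Cpt1a* and *Ehhadh* also lost theirs without a single liver of another time (0.054 to 0.067). Without both ZT2 livers none of the 9 was called, with adjusted p from 0.051 to 0.25.

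Among genes of gluconeogenesis, 3 of 14 were higher and none lower (median 0.24). *Slc37a4*, the glucose-6-phosphate transporter, was at 234 and 237 rpbp at ZT10, just above the highest other value of 231 rpbp (median 146; log2 difference 0.71 ± 0.11, adjusted p = 0.0070). *Gpt1*, an alanine aminotransferase, was at 404 and 416 rpbp, above all others (206 to 371 rpbp). The gatekeeping enzymes showed no call, with *Pck1* at 782 and 1184 rpbp against 407 to 891 rpbp (adjusted p = 0.087) and *G6pc* at 470 and 545 rpbp against 260 to 773 rpbp (adjusted p = 0.74). In amino acid catabolism, 4 of 27 genes were higher and none lower (median 0.25, and 0.14 without both ZT2 livers). These were *Oat* at 1269 and 1340 rpbp, the serine dehydratase *Sds* at 311 and 283 rpbp and the proline dehydrogenases *Prodh* and *Prodh2*, at 226 and 203 rpbp and at 254 and 262 rpbp. *Sds* overlaps genes on the opposite strand. All 7 calls of these lists ended without one or the other ZT10 liver (highest adjusted p from 0.057 to 0.34), and 4 ended without both ZT2 livers (0.051 to 0.25). *Foxo1* (0.082) and *Prodh2* (0.077) also lost theirs without a single liver of another time.

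Sugar handling was mixed. *Pfkfb1*, which sets the level of fructose-2,6-bisphosphate, was at 43.1 and 52.5 rpbp at ZT10, above all others (15.2 to 39.5 rpbp; log2 difference 0.80 ± 0.11, adjusted p = 0.0042), and it was called under every removal of a liver. It overlaps *Apex2* on the opposite strand. It was 1 of 2 higher genes among 15 of glycolysis and glucose sensing, and the other was the transporter *Slc2a2*. In glycogen metabolism, with 13 genes tested, *Ppp1r3c* was lower and *Ppp1r3b*, the liver's main subunit of the same kind, was higher, at 482 and 516 rpbp against 203 to 615 rpbp (log2 difference 0.62 ± 0.14, adjusted p = 0.035). Calls of *Slc2a2* and *Ppp1r3b* ended without either ZT10 liver (highest adjusted p 0.21 for each), without single livers of other times (up to 0.071) and without both ZT2 livers (0.27 and 0.19). Insulin and IGF signalling had 1 of 21 genes higher (*Foxo1*) and 2 lower. *Irs1*, the insulin receptor substrate, was at 5.88 and 5.32 rpbp, below all others (7.72 to 14.2 rpbp; log2 difference −0.85 ± 0.12, adjusted p = 0.0058), and its call ended without the ZT10 liver of series 2 (adjusted p = 0.063). *Stat5b*, which transmits the growth hormone signal, was at 28.8 and 25.9 rpbp against 28.6 to 46.1 rpbp (adjusted p = 0.038). The calls of *Stat5b* and *Foxo1* ended without either ZT10 liver (adjusted p up to 0.26 and 0.34), without single livers of other times (up to 0.082) and without both ZT2 livers (0.095 and 0.14).

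The glucocorticoid response list had 4 of 20 genes higher and 1 lower (median 0.18, and 0.10 without both ZT2 livers). *Fkbp5*, a chaperone partner induced by the receptor, was at 55.5 and 42.2 rpbp at ZT10 against a median of 21.7 rpbp, with other values of up to 66.6 rpbp (log2 difference 0.91 ± 0.13, adjusted p = 0.0049). *Tsc22d3* was at 164 and 143 rpbp against 54.0 to 217 rpbp, *Angptl4*, an inhibitor of lipoprotein lipase, at 107 and 129 rpbp against 33.5 to 94.1 rpbp, and the zinc finger factor *Zbtb16* at 8.96 and 18.4 rpbp against 1.08 to 9.40 rpbp. *Sgk* (*Sgk1*) was lower, at 11.0 and 11.2 rpbp against 10.6 to 18.4 rpbp, a small difference of −0.32 ± 0.08 (adjusted p = 0.044). *Tat*, a well-known target, was at 979 and 1314 rpbp against a median of 1137 rpbp (adjusted p = 0.98). Only the call of *Fkbp5* held under each removal of 1 liver, and the 4 others ended without the ZT10 liver of series 2 (highest adjusted p from 0.061 to 0.28). Those of *Tsc22d3*, *Sgk* and *Zbtb16* ended also without single livers of other times (0.058 to 0.080) and without both ZT2 livers (0.088 to 0.27).

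Acute phase and cytokine genes were lower in 4 of 24 cases and higher in 2, with a median log2 difference of −0.50 that was −0.22 without ZT2. The 3 fibrinogen chains moved together. *Fga* (chromosome 3, 82830075 to 82838036) was at 3733 and 3632 rpbp at ZT10 against 3960 to 13317 rpbp (median 5739), a log2 difference of −0.82 ± 0.16 (adjusted p = 0.018), and the ZT6 livers, at 4106 and 3960 rpbp, were nearly as low. *Fgb* was at 4099 and 3952 rpbp against 4636 to 14625 rpbp, and *Fgg* at 2888 and 2707 rpbp against 2905 to 9486 rpbp. *Lbp*, the lipopolysaccharide-binding protein, was at 28.7 and 22.7 rpbp against 31.4 to 155 rpbp. The ZT2 livers held high values in this list, and the serum amyloid gene *Saa1* spanned 57.8 to 14312 rpbp over the other livers and stood at 91.6 and 129 rpbp at ZT10 (adjusted p = 0.24). Higher genes were *Il6ra*, the interleukin-6 receptor chain, at 41.8 and 34.4 rpbp against 16.6 to 47.3 rpbp, and the NF-κB inhibitor *Nfkbia* at 48.6 and 55.3 rpbp against 30.0 to 44.4 rpbp. All 6 calls ended without the ZT10 liver of series 1 (highest adjusted p from 0.077 to 0.22) and 5 without that of series 2. *Fgb* and *Nfkbia* also lost theirs without a single liver of another time (up to 0.057), and all but *Il6ra* ended without both ZT2 livers (0.059 to 0.20).

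Bile acid genes were split, with 2 of 20 higher and 2 lower (median −0.01). *Cyp7a1*, the rate-limiting enzyme of bile acid synthesis, was at 203 and 81.4 rpbp at ZT10 against 22.1 to 121 rpbp (log2 difference 1.30 ± 0.30, adjusted p = 0.036), and series 1 carried the difference. *Akr1d1*, a later enzyme of the pathway, was at 378 and 380 rpbp against 97.6 to 376 rpbp. The exporter *Abcb11* was lower, at 217 and 206 rpbp against 215 to 482 rpbp (log2 difference −0.63 ± 0.08, adjusted p = 0.0045), and so was *Hsd3b7*, at 382 and 430 rpbp against a median of 607 rpbp. The call of *Abcb11* held under each removal of 1 liver and without ZT2. The 3 others ended without the ZT10 liver of series 1 (highest adjusted p from 0.082 to 0.23) and without both ZT2 livers (0.068 to 0.29), and *Cyp7a1* also without single livers of 4 other times (up to 0.067).

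Protein quality genes gave few calls. Heat shock chaperones had 2 of 17 lower, *Hspb1* at 12.6 and 20.0 rpbp against 20.5 to 48.7 rpbp and *Hsp90aa1* at 158 and 162 rpbp against 117 to 364 rpbp. In the unfolded protein response, 2 of 28 were higher, the glutathione-degrading *Chac1* and the ER membrane protein *Herpud1*, and 2 lower, the disulfide isomerase *Pdia4* and the stress factor *Atf4*, with a median of −0.33. At an unadjusted p below 0.05 in limma, 12 of the 28 were lower and 2 higher, and 5 of the 28 had a positive difference. For the 17 heat shock chaperones these unadjusted counts were 5 lower and 3 higher. *Chac1* was at 10.2 and 15.6 rpbp at ZT10 against 1.64 to 7.68 rpbp, so that it exceeded the minimum of 8 rpbp at ZT10 alone and had to be higher there to be counted. *Atf4* was at 110 and 117 rpbp, below all others (127 to 217 rpbp). These 6 calls ended without at least 1 ZT10 liver (highest adjusted p from 0.11 to 0.28) and without both ZT2 livers (0.058 to 0.11). *Hsp90aa1*, *Pdia4* and *Chac1* also lost theirs without a single liver of another time (0.055 to 0.086). The mitochondrial unfoldase *Clpx* was lower, at 70.1 and 75.8 rpbp against a median of 256 rpbp (log2 difference −1.36 ± 0.10, adjusted p = 0.00036), and held under every removal. At ZT6 it was as low, at 78.7 ± 8.12 rpbp (SD, n = 2). *Tomm20* and *Phb2*, of the same list of 18, were called higher by log2 differences of 0.28 and 0.29, calls that ended without either ZT10 liver (adjusted p up to 0.28), without single livers of other times (up to 0.093) and without both ZT2 livers (up to 0.14). None of 35 cytoplasmic ribosomal protein, 32 respiratory chain and 26 ribosome biogenesis genes was called by limma, with or without its trend, with medians of −0.10, 0.15 and 0.08 (the last 0.12 without both ZT2 livers). Of these, 2 ribosomal protein genes were lower, and 7 respiratory chain and 1 biogenesis genes higher, at an unadjusted p below 0.05. Of 5 cold-inducible RNA-binding genes, *Rbm3* was higher, at 49.0 and 48.3 rpbp against 32.0 to 45.5 rpbp, and *Sar1b*, a GTPase of ER export, was the 1 of 25 secretion genes called. Among 14 cell cycle genes, *Wee1* and *Myc* were higher, *Myc* at 9.16 and 14.5 rpbp against a median of 3.32 rpbp. *Rbm3*, *Sar1b* and *Myc* lost their calls without a ZT10 liver (adjusted p up to 0.21, 0.29 and 0.19) and without both ZT2 livers (0.14, 0.20 and 0.052), *Rbm3* and *Sar1b* also without single livers of other times (up to 0.086).

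ZT10 was next compared with its neighbours in time, which share the ZT10 livers, so that the comparisons are not independent. Against ZT6, 17 genes were higher (0.167%) and 16 lower (0.157%). Every count of genes here is one of entries, and some entries had nearly the same values and may share reads. Such pairs against ZT6 were *Tsc22d3* and *Tilz3b* (log2 differences 1.34 and 1.38) and *Arrdc3* and *mKIAA1376* (both −1.82). *Nr1d1*, which encodes REV-ERBα, had fallen furthest among the 16 called genes, from 142 and 108 rpbp to 20.6 and 23.4 rpbp (log2 difference −2.44, adjusted p = 0.0050). *Cry1*, a repressor that comes late in the cycle, was higher than at ZT6 (log2 difference 1.36, adjusted p = 0.018) and lower than at ZT14 (−1.06, adjusted p = 0.029), at 19.6 and 15.3 rpbp. *Il6ra* (0.99), *Fkbp5* (1.28) and *Tsc22d3* (1.34) were higher than at ZT6 on the log2 scale, as was *BC019819* (2.10, adjusted p = 0.010), the only one of the 17 that also lay above all other livers. *Serpina4-ps1*, annotated as a pseudogene, rose most, from 13.1 and 14.8 rpbp at ZT6 to 153 and 122 rpbp, though the ZT2 livers held 327 and 412 rpbp.

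Against ZT14, 36 genes were higher at ZT10 (0.353%) and 55 lower (0.539%). Among the 36, *Scd1* and *BC114417* (log2 differences 2.84 and 2.78) and *Gde5* and *Prei4* (1.44 and 1.43) were pairs of entries with nearly the same values. *Cyp4a14* (log2 difference 5.37), *Cyp4a31* (3.18), *Cyp4a10* (3.08) and *Scd1* (2.84) were higher, as was *Pparg*, an adipogenic nuclear receptor, at 6.24 and 40.2 rpbp against 0.16 and 0.20 rpbp. *Dbp* (2.32) and *Nr1d1* (1.93) were also higher than at ZT14. Among the 55 lower genes, 19 lay below all 10 other livers, *Ppp1r3c* (−1.42), *Cldn1* (−1.25), *Dtx4* (−1.25) and *Irs1* (−0.90) among them. *Hsp90aa1* was lower than at ZT14 by −1.11 on the log2 scale. The counts against both neighbours moved with single livers. Against ZT6, no gene was called in either direction without the series 1 liver of ZT10 or of ZT6. Against ZT14, 4 were higher and 8 lower without the series 2 liver of ZT10, and 76 and 57 without that of series 1. Without the ZT14 liver of series 2, 2 were higher and 1 lower.

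A stricter demand, a call against each of the 5 other times in the same direction, was met by 1 gene. *AK214641*, a transcript with no gene symbol and chosen here after its values were seen, was at 24.4 and 23.3 rpbp at ZT10 and between 35.9 and 53.7 rpbp in the 10 other livers. No gene was higher than at each of the other times by this measure, while at an unadjusted p below 0.05 in each of the 5 comparisons 29 genes were higher and 78 lower. With the 10 other livers taken as 1 group, limma called no gene higher and 1 lower, while 390 and 615 genes had an unadjusted p below 0.05.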

How the data were processed

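The deposited signal is a coverage in rpbp. Per the labels and the study's methods, libraries were made with the TruSeq RNA sample kit and base calls came from CASAVA 1.8. The methods do not describe these libraries as strand-specific. The authors mapped sequences to mm9 with TopHat and kept unique places. They summed reads over the exons of all isoforms, divided by exon length and scaled to the mapped sequences of a sample. Values were taken times 4, since the study's minimum of 8 rpbp refers to that scale. The table holds coverage and no read counts, so no counting interval was made, and the sequencing depths that the study lists were not used here. The columns headed ZT20 were taken as ZT22: 1793 and 1792 of 1801 genes lay within 0.08 rpbp of the study's ZT22 values. The deposited rhythm score, phase and p-value of the authors were not used. The 12 libraries had summed signals of 1.49e+06 to 1.55e+06 rpbp.

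Means of 6 times were fitted to log2(rpbp + 1) in limma 3.58.1 (R 4.3.3; trended variances, 6 residual degrees of freedom), with ZT10 set against the mean of the 5 other times, ZT6 and ZT14, and Benjamini-Hochberg adjustment over 10198 genes. Fold changes on this scale understate those of low genes. Nothing in the sources says that the 2 livers of a time were handled apart beyond belonging to separate series. The p-values rest on the spread between the 2 livers of a time, pooled over the 6 times and moderated towards the trend. They do not measure the spread of the ZT10 pair alone, which had the most genes over 2-fold apart (285, against 113 at ZT2). Genes were named as the 10 largest differences in each direction among called genes with no overlap and a mean of at least 8 rpbp, up to 5 called genes in each direction and up to 4 uncalled genes of each list, clock genes, and genes at the edge of the count, and others are named as such. Members and lists were chosen with earlier results of these data known. Gene positions were read from GENCODE on mm9, where 208 of 210 named genes had a place. Python 3.11.15, pandas 2.3.3 and matplotlib 3.10.9 were used.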

Additional observations from a re-analysis of the deposited data

How the results depend on the processing

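No named gene reversed its direction under any alternative, but many calls depended on the setting. Counts of genes higher and lower than the mean of the other times stayed within 1.5 times of 285 and 309 with a pseudocount of 0.1, a minimum of 16 rpbp, size factors or no trend. Without a minimum they were 152 and 176, with all other livers as 1 group 0 and 1, with a call demanded against each of the 5 times 0 and 1, and without both ZT2 livers (chosen after the data were seen) 65 and 107. Against ZT6 (17 and 16), they were 2 and 2 without a minimum and 10 and 6 without ZT2. Against ZT14 (36 and 55), they were 15 and 28 without a minimum, 13 and 24 without ZT2, and 17 higher without the trend. A gap of 1.1 times left 48 genes above and 108 below. Of 86 called named genes, 85 lost their call with 1 group of other livers, 48 without ZT2, 32 without a minimum and 16 without the trend.

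With 1 liver left out, which leaves a time with 1 liver assumed to vary like the others, counts ranged from 69 to 362 higher and 105 to 376 lower, from 0 to 25 and 0 to 19 against ZT6, and from 2 to 76 and 1 to 67 against ZT14. Genes above and below all others ranged from 277 to 1219 and 443 to 1201, highest where 1 ZT10 liver stood alone.

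The series number as a replicate block gave 223 higher and 257 lower, 11 and 10 against ZT6, and 20 and 46 against ZT14. Deviations of same-numbered livers correlated between −0.153 and 0.206 over 15 pairs of times, so that the numbers were not taken to pair the livers. Of the 86 named calls, 11 had an adjusted p between 0.052 and 0.071 with the block, those of *Alas1*, *Elovl6*, *Foxo1*, *Hsp90aa1*, *Phb2*, *Prodh2*, *Rbm3*, *Sgk*, *Slc3a1*, *Stat5b* and *Tomm20*.

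Coverage without read counts gives no counting error, and 2 livers at ZT10 limit every comparison.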

Other observations

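*Gja10*, a connexin gene that led the list of lower genes, was nearly off in some livers and on in others, alike in both livers at every time but ZT18. It was at 0.28 and 0.24 rpbp at ZT10, at 0.32 and 0.56 rpbp at ZT22 and at 0.56 rpbp in series 2 of ZT18. The other 7 livers were between 16.6 and 27.2 rpbp, among them the series 1 liver of ZT18 at 20.8 rpbp. No value of this gene lay between 0.56 and 16.6 rpbp, and the ZT10 livers are thus not set apart from all other times by the size of the gap.

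*Pparg* was at 6.24 rpbp in series 1 and 40.2 rpbp in series 2 at ZT10, *Cyp4a14* at 249 and 1058 rpbp and *Scd1* at 8948 and 23462 rpbp, with the series 2 liver the higher in each. At ZT6 the values of these genes in series 1 and series 2 were 24.0 and 27.8 rpbp, 1430 and 1322 rpbp, and 27154 and 18548 rpbp. *Hbb-b1*, a beta globin gene, was at 114 rpbp in series 1 and 598 rpbp in series 2 of ZT10. In the opposite direction, *Upp2* (693 and 337 rpbp), *Cyp2a5* (3070 and 1484 rpbp) and *Cyp7a1* (203 and 81.4 rpbp) were higher in series 1. These genes were picked after their values were seen.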
